A study of Mus musculus with 6 samples.

Results

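The 45 genes described here are cell cycle and proliferation genes, taken by name and not by any measured value. 15 act in G1 and S phase and 30 in G2 and mitosis. They were found among the named non-control probes of a 2-colour expression array: 73 probes carry a member's name, 64 of them were tested, and all 45 genes have at least 1 tested probe, out of 20820 genes tested in all. The study compared 3 arrays of Pax9 knockout esophagus with 3 of wild type esophagus, all from adult C57BL/6J mice. The knockouts were K5Cre;Pax9 loxp/loxp, in which Cre recombinase under the keratin 5 promoter, active in the basal cells of squamous epithelium, removes the floxed part of Pax9, a paired-box transcription factor. The wild type mice are labelled WT, and whether they carried Cre or a floxed allele is not given in the sources. Each array held esophagus RNA in Cy5 and a common reference RNA from 11 cultured mouse cell lines in Cy3, with no dye swap, so a level here is log2 of esophagus over reference, and a difference is that log2 ratio in knockout minus wild type.

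The cell cycle runs from a G1 decision, through origin licensing and DNA synthesis, to mitosis. E2F factors switch on the S phase genes. The DREAM and MuvB complexes, with FOXM1 and B-MYB, time the mitotic genes through the cell cycle homology region (CHR) of their promoters. Many mitotic promoters also hold CCAAT boxes. In the mouse esophagus dividing cells lie in the basal layer, and cells leave the cycle as they move up and become the keratinised suprabasal layers.

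All knockout arrays lay on 1 slide and shared 1 scan date entry in the file headers. All wild type arrays lay on another slide with another scan date entry, so slide, scan and group cannot be told apart. Samples of a group are labelled biological replicates with nothing more on the animals, and p-values here measure only the spread between these samples. Pax9 itself was not lower in the arrays labelled knockout: its probe, at chr12:57811169-57811228 of mm9, had log2 ratios of 6.77 ± 0.05 in knockout and 6.04 ± 0.30 in wild type (SD, n = 3 each), a difference of 0.73 ± 0.18 (SE) with an adjusted p of 0.0715 in limma. The floxed exons are not named in the sources, so whether this probe lies in the deleted stretch is unknown and it cannot check the labels. The groups are named by their labels throughout. The labels call the tissue esophageal epithelium in one field and esophagus in another. All 7 basal and 6 suprabasal squamous markers were well above background on all 6 arrays, and so were all 8 skeletal muscle, 5 smooth muscle and 6 fibroblast markers. Knockout replicate 1 stands apart from the other arrays in the members' levels, as given below, and the counts and the genes the results turn on are also given without it.

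Taken as a set, the promoters of the members differ between S phase and mitotic genes, and those of Cdk1, Plk1, Melk and Mcm3 are given first. These are 4 of the 5 members whose difference reached an unadjusted p under 0.05. The sequences are from RefSeq (assembly GRCm38.p6), 250 bases before to 50 after the gene's start, 5′ to 3′ on the gene's strand, and capitals mark matches to a CCAAT box (CCAAT), a CHR (TTTGAA or TTCGAA) or an E2F site (TTTCCCGC, TTTCGCGC, TTTGCCGC or TTTGGCGC), on either strand. The regions are chr10:69352863-69353162 (minus strand) for Cdk1, chr7:122159185-122159484 (plus) for Plk1, chr4:44300667-44300966 (plus) for Melk and chr1:20820263-20820562 (minus) for Mcm3.
Cdk1: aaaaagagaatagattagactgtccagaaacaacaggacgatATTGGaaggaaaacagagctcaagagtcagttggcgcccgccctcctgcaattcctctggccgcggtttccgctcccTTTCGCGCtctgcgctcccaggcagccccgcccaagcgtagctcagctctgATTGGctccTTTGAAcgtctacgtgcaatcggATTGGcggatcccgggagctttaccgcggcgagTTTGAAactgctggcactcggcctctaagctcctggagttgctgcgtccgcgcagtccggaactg
Plk1: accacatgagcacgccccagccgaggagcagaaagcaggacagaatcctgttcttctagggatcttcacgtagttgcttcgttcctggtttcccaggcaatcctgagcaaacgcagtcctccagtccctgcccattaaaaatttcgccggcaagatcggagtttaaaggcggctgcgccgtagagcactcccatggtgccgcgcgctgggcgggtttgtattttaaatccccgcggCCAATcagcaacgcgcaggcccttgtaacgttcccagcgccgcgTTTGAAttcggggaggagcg
Melk: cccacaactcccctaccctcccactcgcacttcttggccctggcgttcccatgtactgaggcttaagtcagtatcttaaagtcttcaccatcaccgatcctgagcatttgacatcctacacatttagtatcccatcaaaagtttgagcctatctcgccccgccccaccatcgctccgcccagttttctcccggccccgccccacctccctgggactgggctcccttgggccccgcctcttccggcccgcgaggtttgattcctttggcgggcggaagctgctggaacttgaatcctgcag
Mcm3: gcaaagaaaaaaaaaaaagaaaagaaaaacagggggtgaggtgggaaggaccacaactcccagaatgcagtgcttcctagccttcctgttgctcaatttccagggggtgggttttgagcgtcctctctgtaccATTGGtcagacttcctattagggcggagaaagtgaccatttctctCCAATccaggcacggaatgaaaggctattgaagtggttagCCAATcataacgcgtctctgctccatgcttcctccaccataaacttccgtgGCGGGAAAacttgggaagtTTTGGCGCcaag

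The mitotic kinase genes Cdk1 and Plk1 hold CHR and CCAAT matches, with 2 CHR and 3 CCAAT matches in Cdk1 and 1 of each in Plk1. Cdk1 also has 1 E2F match. Mcm3, a subunit of the replicative helicase, holds 2 E2F and 3 CCAAT matches and no CHR match. Melk, a mitotic member, holds none of the letters searched in this window. The promoter of Aurka, not shown, holds 1 CHR and 2 CCAAT matches and no E2F match. A promoter was found for 37 of the 45 members. A CHR match lay in 19 of 24 mitotic promoters (79.2%) and 2 of 13 S phase promoters (15.4%), against 21.7% of all 27025 genes in the promoter table. An E2F match lay in 1 of 24 mitotic promoters (4.17%) and 5 of 13 S phase promoters (38.5%), against 2.6% of all genes. CCAAT matches lay in 20 of 24 mitotic promoters (83.3%) and 8 of 13 S phase promoters (61.5%), against 41.1% of all genes. Among the other genes of the cycle, listed by function, the mitotic ones had CHR matches in 24 of 33 promoters (72.7%) and the replication ones in 7 of 25 (28.0%), while E2F matches lay in 4 of 33 (12.1%) and 10 of 25 (40.0%). A gene with several entries counts if any entry matches, and matches of different motifs may share bases. These are matches of letters, not measured binding.

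**Figure D1:**
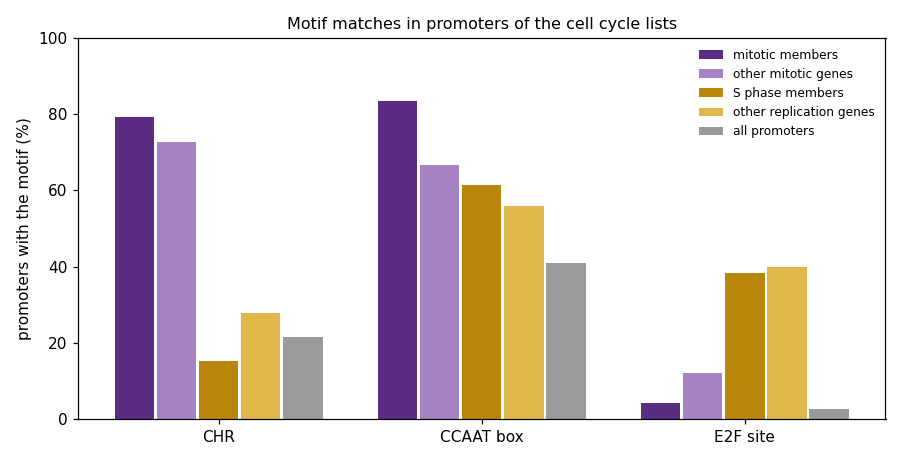
Share of promoters, in percent, that hold at least 1 match to the CCAAT box, the CHR and the E2F site, for mitotic and S phase members, other mitotic and replication genes, and all genes of the promoter table. CHR matches lay in 79.2% of mitotic and 15.4% of S phase members, and E2F matches in 4.17% and 38.5%.

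In both genotypes the members were low in esophagus against the reference, which is made of cultured cell lines. 43 of the 45 were below the reference on all 6 arrays, and the group means of single members lay between -3.46 and 0.61. The exceptions were Bub1, a spindle checkpoint kinase, and Cdca8, a subunit of the chromosomal passenger complex, whose wild type replicate 1 stood at 0.02. All 45 had probes well above background on all 6 arrays, but the dimmest signals were under the offset of 50 added in background correction. Cy5 signals of Ttk were 38.3 and 35.3 on wild type replicates 1 and 2, and that of Ndc80 was 41.4 on knockout replicate 1. The ratios of such members can depend on the processing: the difference of Ttk was 0.10, 0.15 with no background correction and 0.425 in the deposited log ratio. That of Ndc80 was -0.53, -0.62 and -0.52 in the same order. The deposited log ratio differs in more than the offset, and the part of the offset was not tested. Bub1's level depends on the probe: its brightest had means of 0.33 in knockout and 0.61 in wild type, while its other tested probe had means of -3.99 in knockout and -3.84 in wild type.

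None of the 45 members passed the test for a difference between knockout and wild type, at an adjusted p under 0.05 in limma over all tested probes. Among all genes 4.84% passed: 590 of 20820 (2.83%) were higher in knockout and 417 (2.0%) lower. 5 members reached an unadjusted p under 0.05, against 24.7% of all genes. Melk and Mcm3 were the 2 with higher values in knockout, and Cdk1, Aurka and Plk1 the 3 with lower. In all, 21 members had a positive and 24 a negative difference, with a median of -0.07 (all genes 0.01) and a range of -0.79 to 0.98. Knockout and wild type arrays did not overlap for 8 members (17.8%), against 32.2% of all genes. Those were Mcm3, Cdc25c and Melk, higher in knockout, and Cdc6, Cdk1, Aurka, Bub1 and Plk1, lower. These directions are of the brightest probe. The other tested probes of Cdc25c, Cdc6 and Cdk1 had the opposite sign (-0.09, 0.16 and 0.49), and that of Bub1 the same sign (-0.15). The 95% interval of the difference lay within 1 log2 unit of 0 for 31 of the 45. The median difference is a small figure whose sign depends on the scaling: with median centring in place of loess the S phase members had a median of 0.29 and the mitotic members 0.17, where all genes had 0.11. In bulk tissue fewer cells of a type and less RNA per cell cannot be told apart.

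**Figure D2:**
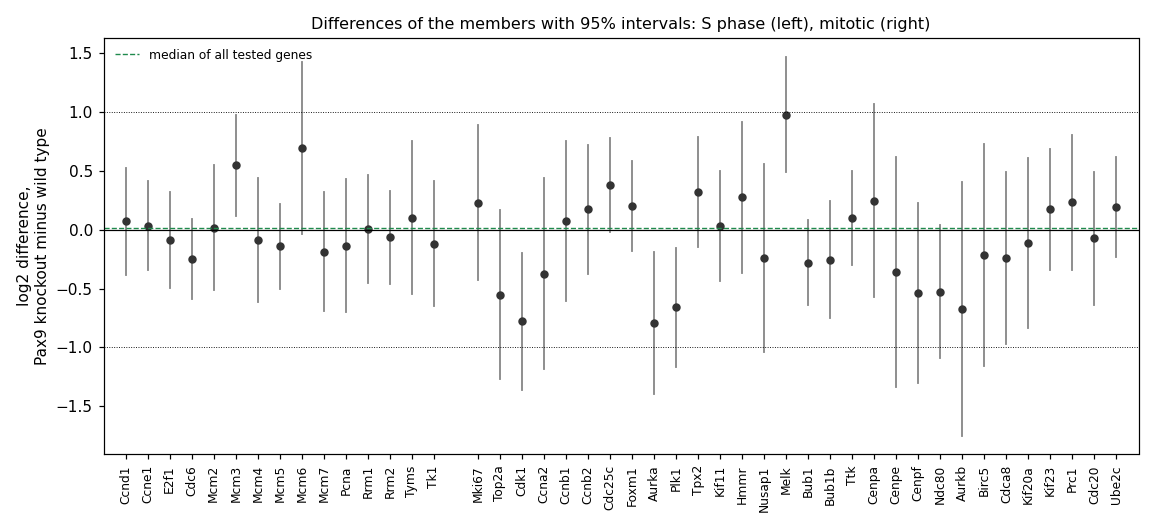
Difference between Pax9 knockout and wild type on the log2 ratio scale for each of the 45 members, with its 95% interval, ordered by role. The differences range from -0.79 for Aurka to 0.98 for Melk, and none has an adjusted p under 0.05.

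Among the S phase members 0 of 15 passed, with a median difference of -0.06. The G1 regulators Ccnd1, a D-type cyclin, Ccne1, a cyclin of the G1 to S step, and E2f1, a transcription factor of S phase genes, had differences of 0.07, 0.03 and -0.09. Mcm3 had log2 ratios of -2.28, -2.20 and -1.97 in the knockout arrays and -2.41, -2.77 and -2.90 in the wild type arrays. All 3 knockout arrays were above all 3 wild type arrays, by a difference of 0.54 ± 0.18 (SE, adjusted p = 0.133 in limma). Mcm6, another helicase subunit, stood at -3.33, -2.60 and -2.37 in knockout and -3.03, -3.49 and -3.87 in wild type, a difference of 0.69 (adjusted p = 0.235). The groups overlapped, with knockout replicate 1 below wild type replicate 1. The helicase subunits Mcm2, Mcm4, Mcm5 and Mcm7 had differences between -0.19 and 0.02, and none of the 6 subunits passed. Cdc6, which loads the helicase, had log2 ratios of -2.34, -2.35 and -2.06 in knockout and -2.03, -1.98 and -2.00 in wild type, a difference of -0.25 (adjusted p = 0.349). Pcna, the sliding clamp, had log2 ratios of -2.46, -1.98 and -1.88 in knockout and -1.87, -2.37 and -1.68 in wild type, which overlap, with a difference of -0.13 (adjusted p = 0.775). Of the enzymes that supply nucleotides, the ribonucleotide reductase subunits Rrm1 and Rrm2 had differences of 0.01 and -0.06, the thymidylate synthase gene Tyms 0.10 and the thymidine kinase gene Tk1 -0.12. 14 of the 15 intervals lay within 1 log2 unit of 0, the exception being Mcm6.

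Among the mitotic members 0 of 30 passed, with a median difference of -0.09, 14 positive and 16 negative differences, and 17 intervals within 1 log2 unit of 0. Melk, a kinase of proliferating cells, had log2 ratios of -1.19, -1.07 and -0.78 in knockout and -1.93, -2.33 and -1.70 in wild type. Every knockout array was above every wild type array, and the difference of 0.98 ± 0.21 (SE) is the largest of the members in size, with an interval of 0.49 to 1.47 and an adjusted p of 0.0505 in limma, just outside the threshold. Its probe lies at chr4:44376833-44376892 of mm9. With replicate number as a block the adjusted p was 0.0272, where 8.2% of all genes were called. Over the settings tried it ran from 0.0158 to 0.195, and it was under the threshold in 7 of 17 settings, leaving out 2 that repeat another.

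The 3 members with a negative difference and an unadjusted p under 0.05 encode kinases of mitotic entry and the spindle. Cdk1, the kinase that drives entry into mitosis, had log2 ratios of -2.94, -2.16 and -2.08 in knockout and -1.51, -1.78 and -1.55 in wild type, a difference of -0.78 ± 0.25 (SE, adjusted p = 0.12 in limma). Aurka, a spindle pole kinase, stood at -2.92, -2.20 and -2.50 in knockout and -1.36, -1.79 and -2.09 in wild type, a difference of -0.79 ± 0.26 (adjusted p = 0.125 in limma). Plk1, a kinase of mitotic entry and the spindle, stood at -2.56, -1.88 and -2.06 in knockout and -1.29, -1.58 and -1.64 in wild type, a difference of -0.66 ± 0.21 (adjusted p = 0.126 in limma). In each of the 3 genes no knockout array reached a wild type array. Cdk1 was not settled by its probes: its dimmer tested probe had a difference of 0.49 (adjusted p = 0.257), and the mean over its probes was -0.15 (adjusted p = 0.586, with a range of 0.0376 to 0.586 over the settings). In all, 16 members had several tested probes, and for 10 of them the signs of the differences were mixed. Those 10 were Ccne1, Cdc6, Tyms, Ccnb1, Cdk1, Cdc25c, Hmmr, Kif20a, Kif23 and Nusap1. The sign given here for each is that of its brightest probe. For Ccnb1, at 0.07, the other tested probes had -0.43 and -0.28.

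The other mitotic members had differences closer to 0 or wide intervals. Mki67, the proliferation antigen Ki-67, had log2 ratios of -3.66, -2.70 and -2.65 in knockout and -3.23, -3.27 and -3.21 in wild type, a difference of 0.23 ± 0.28 (SE, adjusted p = 0.66 in limma). The groups overlapped, with knockout replicate 1 the lowest of the 6 arrays and the other knockout arrays the highest. Top2a, the topoisomerase of condensing chromosomes, had a difference of -0.55. The cyclins Ccna2, Ccnb1 and Ccnb2 had differences of -0.37, 0.07 and 0.17, and Cdc25c, a phosphatase that activates CDK1, 0.38. Foxm1, which encodes a transcription factor of mitotic genes, had 0.20. At the spindle, Tpx2, an AURKA activator, had 0.32, Kif11, a bipolar spindle motor, 0.03, Hmmr, a spindle protein, 0.28, and Nusap1, which bundles microtubules, -0.24. Kinetochore and checkpoint genes had differences of -0.28 for Bub1, -0.25 for Bub1b, 0.10 for Ttk, 0.25 for Cenpa, -0.36 for Cenpe, -0.54 for Cenpf and -0.53 for Ndc80. In the passenger complex and cytokinesis Aurkb had -0.67, Birc5 -0.22, Cdca8 -0.24, Kif20a -0.11, Kif23 0.17 and Prc1 0.23, while Cdc20 and Ube2c, which act with the anaphase-promoting complex, had -0.07 and 0.19. None of these passed the test.

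**Figure D3:**
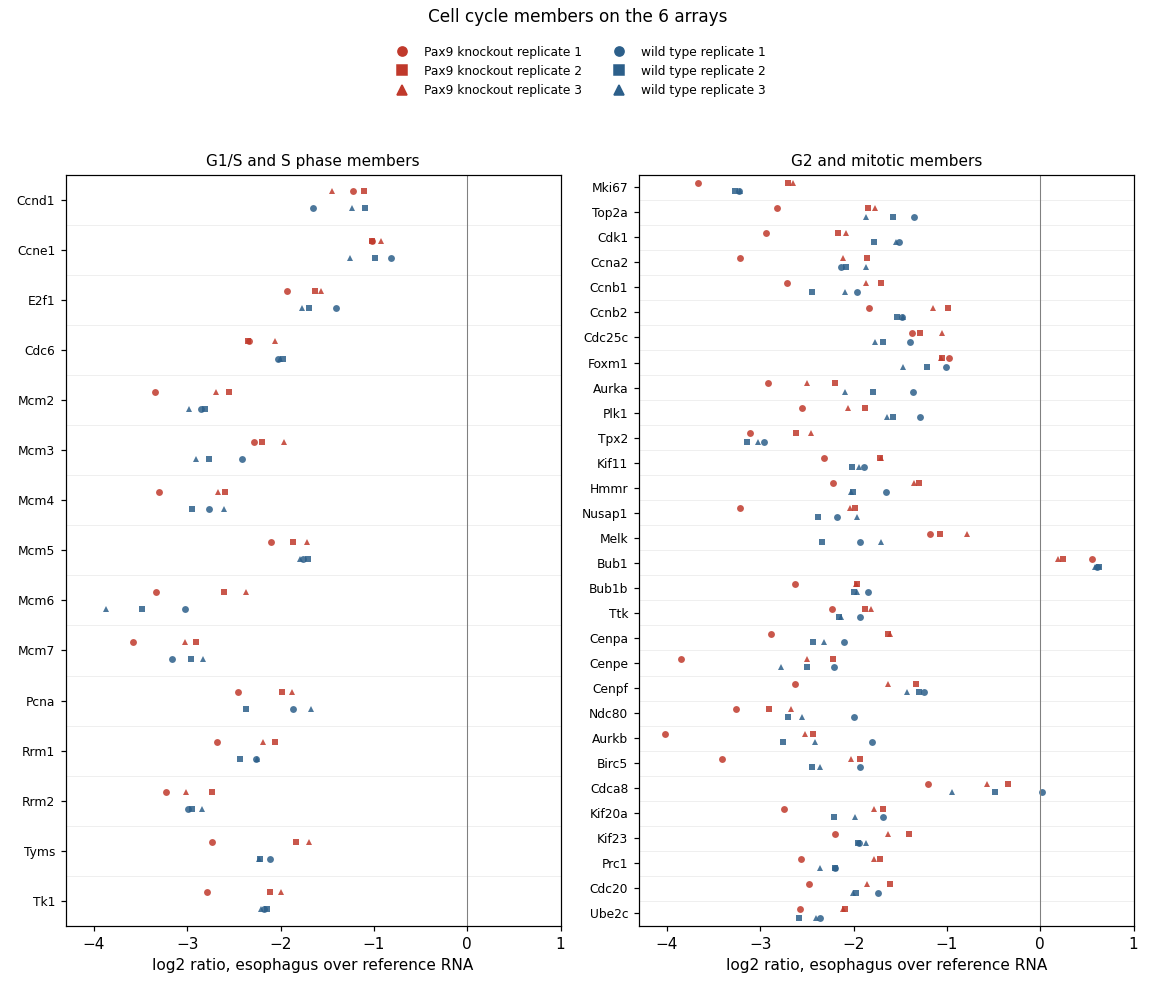
Log2 ratio of esophagus over reference on each of the 6 arrays for each member, knockout and wild type arrays side by side, with a marker shape for the replicate. Most members lie below 0, and the circle of knockout replicate 1 is the lowest of the 6 arrays in 34 of 45 members.

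The members were spread more among the knockout arrays than among the wild type arrays, and knockout replicate 1 was most often the lowest array. The SD of a member had a median of 0.39 in knockout and 0.17 in wild type, and was larger in knockout for 35 of the 45 (77.8%), against 48.8% of all genes. Knockout replicate 1 was below the mean of knockout replicates 2 and 3 in 42 members, with a median of -0.67 log2 units over the 45, where 46.0% of all genes were below and their median was 0.03. It was the lowest of all 6 arrays in 34 members (75.6%), against 15.6% of all genes. Aurkb, a passenger complex kinase, had log2 ratios of -4.03, -2.44 and -2.53 in knockout and -1.80, -2.76 and -2.41 in wild type. Birc5, the passenger subunit survivin, had -3.41, -1.94 and -2.03 in knockout and -1.93, -2.44 and -2.36 in wild type. Knockout replicate 1 minus the mean of the other knockout arrays was -1.54 for Aurkb and -1.43 for Birc5, and it was the lowest array of both genes. The members not below were Ccnd1, Foxm1 and Bub1. Among mitotic members this difference had a median of -0.76 and 28 of 30 were below, and among S phase members -0.53 and 14 of 15. Among the other cell cycle genes 34 of 40 mitotic and 27 of 32 replication genes were below, with medians of -0.58 and -0.43. The inhibitor and G1 lists had medians of -0.02 and -0.06. In the deposited log ratio, with median centring and in Cy5 alone, 42, 44 and 41 members were below. This is 1 array, with no test. Marker levels also differed on it: it was above the mean of the other knockout arrays in 6 of 6 suprabasal markers (median 0.70), 6 of 6 fibroblast markers (0.55), 4 of 5 smooth muscle markers (0.81), 7 of 8 leukocyte markers (0.30) and 5 of 7 basal markers (0.18), and below it in 5 of 8 skeletal muscle markers (-0.24). The endothelial markers were mixed, with a median of -0.01 and 3 of 5 below. The sign of the basal and skeletal muscle medians depended on the scaling. The basal median was -0.09 with median centring and -0.16 in Cy5 alone, and the skeletal muscle median was 0.05 in the deposited log ratio. The part of these markers in the members' values was not tested.

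**Figure D4:**
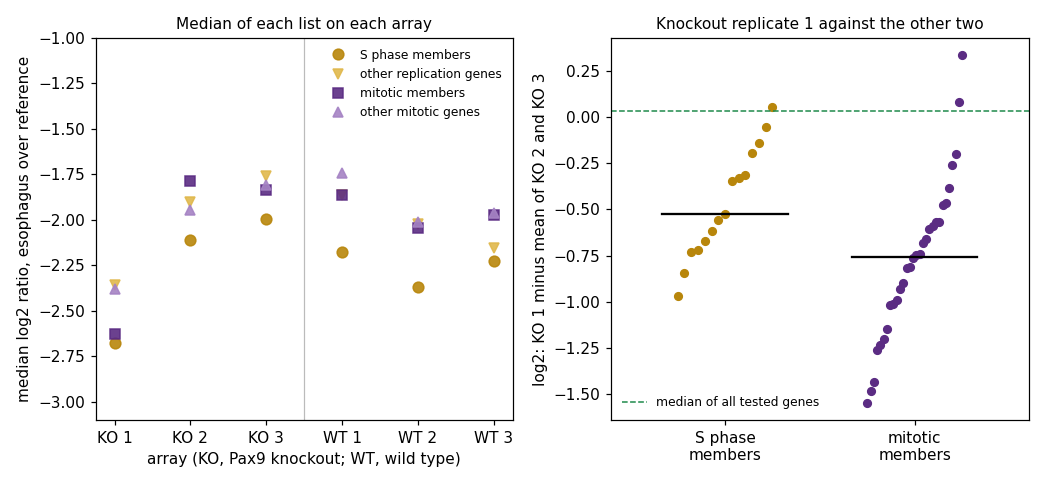
Median log2 ratio of each gene list on each array, knockout and wild type arrays side by side. The S phase and mitotic members are at -2.68 and -2.63 on knockout replicate 1 and between -2.37 and -1.79 on the other 5 arrays.

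Without knockout replicate 1 the median difference was 0.05 for S phase and 0.20 for mitotic members, and again 0 members passed. Of all 20820 genes 267 passed without that array, against 1007 in the main fit. Without wild type replicate 1 the mitotic median was 0.02, and over all left-out arrays it ran from -0.25 to 0.20. The sign of both medians thus changed when knockout replicate 1 was left out, and that of the mitotic median also without wild type replicate 1. Melk kept a difference of 1.06 without knockout replicate 1 (adjusted p = 0.0998 in limma), and Cdk1, Aurka and Plk1 had -0.51, -0.60 and -0.46. Mcm3 then had a difference of 0.61, Mcm6 0.97, Mki67 0.56, Birc5 0.26 and Aurkb -0.16, so Birc5 turned to the other sign, and none of these passed. Without that array the groups did not overlap for 24 members (53.3%), against 42.8% of all genes, a rule that is easier to meet with 2 arrays against 3. Of the 24 members 19 were higher and 5 lower in knockout, where 4721 of all 20820 genes were separated and higher and 4185 separated and lower. The SD of a member over knockout replicates 2 and 3 had a median of 0.09, against 0.17 over the wild type arrays, and was the larger for 14 of the 45 (31.1%), against 39.4% of all genes. Over all genes the median knockout SD also fell, from 0.21 with 3 arrays to 0.16 with 2, against 0.22 in wild type. The array was left out because it stood apart in these members, most often as the lowest array. Less overlap, more members higher in knockout and a smaller spread without it are therefore no test. The overlap and SD counts without this array were added after the data were seen.

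The channels were also read apart, after loess and a scaling of average intensity between arrays, which tie them to each other. In Cy5 alone 30.6% of all genes passed, and 6 members did: Mcm3, Mcm6, Hmmr and Melk were higher in knockout, and Cdk1 and Ndc80 lower. In Cy3 alone, which holds the same reference RNA on all arrays, 51.8% of all genes and 21 members passed between the slides. The part of this reference difference in the members' ratios was not tested.

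Of the other genes of the cycle, listed by function, 101 of 102 were tested and 2 passed. Of 13 inhibitors and pocket proteins 0 were called higher and 1 lower, of 16 other G1 genes 0, of 32 replication genes 0, and of 40 other mitotic genes 1 lower, against the 4.84% of all genes. Cdkn1b, the CDK inhibitor p27, fell in knockout: its log2 ratios were -0.68, -0.64 and -0.56 in knockout and 0.10, 0.42 and 0.07 in wild type, which do not overlap, with a difference of -0.83 ± 0.15 (SE, adjusted p = 0.0356 in limma). Its other tested probes had differences of -0.38 and -0.21, and neither passed. Hjurp, the chaperone of the centromere histone, fell too, at -2.36, -2.85 and -2.80 in knockout and -1.64, -1.93 and -1.75 in wild type, a difference of -0.90 ± 0.18 (adjusted p = 0.0446 in limma). Its 3 other tested probes had differences of -0.74, -0.20 and 0.11. Without knockout replicate 1 neither passed, with -0.80 for Cdkn1b (adjusted p = 0.1004) and -1.05 for Hjurp (adjusted p = 0.0561) in limma. Leaving out 2 settings that repeat another, Cdkn1b was called in 9 and Hjurp in 7 of 17, and with any 1 array left out 0 to 1 of the 101 genes passed. The smallest p among the lists with no call were Ccnd2 (a D-type cyclin, difference -0.95), E2f8 (0.45) and Cdk2 (-0.37) in G1, and Cdc45 (-0.57), Gins2 (0.80) and Gins3 (-0.56), all 3 parts of the helicase complex, in replication. The Cdk2 probe was well above background on 3 knockout arrays and 1 wild type array, so its difference is uncertain: it was 0.26 in Cy5 alone and 0.07 in the deposited log ratio, and the gene's other tested probe had 0.0023.

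Markers of the cells the tissue holds were set beside the members. Their sums are of linear Cy5 signals after background correction, loess and scaling of average intensity between arrays. They are not on the scale of the background-subtracted signals given for Ttk and Ndc80. The 7 basal markers summed to Cy5 signals of 988100, 905900 and 835800 in knockout and 820500, 927400 and 902900 in wild type, which overlap, with 0 of 7 called. The 6 suprabasal markers summed to 2088000, 1205000 and 1490000 in knockout and 1775000, 1266000 and 1478000 in wild type, with 0 of 6 called, and knockout replicate 1 had the highest sum of both lists. The median suprabasal ratio was 7.20, 6.52 and 6.46 in knockout and 6.75, 7.20 and 6.35 in wild type, so wild type replicate 2 stood as high as knockout replicate 1. Skeletal muscle sums were 253700, 1398000 and 267400 in knockout and 68440, 649000 and 57160 in wild type, with Myh2 called higher of 8 markers. Smooth muscle sums ranged from 125600 to 340200 in knockout and 93640 to 352900 in wild type, and fibroblast sums from 203100 to 539000 in knockout and 163900 to 448500 in wild type, with 0 called in either list. Replicate 2 had the highest skeletal muscle sum of its group in both genotypes. Endothelial sums were 3431 to 4857 in knockout and 2703 to 5000 in wild type, with 0 of 5 called. Leukocyte sums were 33390 to 69260 in knockout and 34490 to 121500 in wild type, with Cd3g and Cd207 called lower of 8 and Cd79a the only one not well above background on all 6 arrays. The part of these cell types in the members' values was not tested.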

How the data were processed

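The arrays were scanned with Agilent Feature Extraction, version 10.7.3.1 per the file headers and 9.1 per the submitters' processing notes. The deposited scanner files hold linear intensity for 45018 spots per array and, per the file headers, a log10 ratio of Cy5 over Cy3. The deposited series matrix holds log2 values of Cy3 over Cy5, since they correlate with the scanner ratio at -0.993 to -0.996. Their column medians were -0.02 to 0.02, and their centring is unknown. Probe positions are on mm9.

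From the intensities, background was corrected in limma 3.58.1 (R 4.3.3) by normexp (offset 50), followed by loess within arrays with controls at weight 0. Outlier spots (55 to 164 per array) were set to missing. 30505 of 41174 probes were well above background in Cy5 on all 3 arrays of a group and were tested with lmFit and eBayes, with Benjamini-Hochberg adjustment at 0.05. A gene is its brightest tested probe. Names came from a RefSeq table (GRCm38.p6): 26918 by accession, 5899 by name and 8357 kept from the files. Spots well above background were 72.3 to 76.6% of those in knockout and 67.9 to 77.7% in wild type; the 3 arrays a group limit the precision, and an exact permutation test of 3 against 3 cannot go below 0.1. The code was tested on simulated data. All 45 members and Pax9 are named, and of the other cell cycle lists each gene past the threshold or, where none passed, the 3 with the smallest p. The members and lists were chosen with earlier results of these data known. Same-numbered arrays deviated together (correlations 0.14, 0.49 and 0.32), which pairs them by the rule used (every pair over 0.1), with the numbers from the labels. Pairs of unlike number had -0.47 to 0.16, the highest being knockout 3 with wild type 1. The number also equals the position on the slide, so what the block stands for is not known. 18 alternatives were tried, of which loess with quantile scaling leaves the log ratios as they are and the series matrix repeats the deposited log ratio.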

Additional observations from a re-analysis of the deposited data

How the results depend on the processing

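The count of members past the threshold was 0, and became 1 with no background correction, 1 with an intensity trend, 1 with the replicate block, 1 with the mean over probes, 2 with array weights and 6 in Cy5 alone; with an array left out it was 0 to 1 (1 without wild type replicate 3). In the mitotic members the counts were 1, 1, 1, 1, 2 and 4, and 0 to 1, and in the S phase members 2 in Cy5 alone and 0 otherwise. Except in Cy5 alone and with array weights, which adds Aurka, the 1 member called was Melk. Of all 20820 genes 1007 were past the threshold, against 1351 with no background correction, 1122 with an intensity trend and 1222 with the mean over probes. The count was 571 with the deposited log ratio, 561 with the series matrix, 120 with median centring and 6378 in Cy5 alone. It was 558 with probes well above background on all 6 arrays, 2469 with array weights and 1707 with the replicate block. With an array left out it was 34 to 826 (87, 164 and 826 without wild type replicates 1, 2 and 3, and 267, 676 and 34 without knockout replicates 1, 2 and 3). Of the other cell cycle genes 2 were past the threshold, against 0 with the deposited log ratio, the series matrix, median centring or the mean over probes. The count was 23 in Cy5 alone, 1 with the stricter filter, 4 with array weights and 0 to 1 with an array left out. The S phase median moved to 0.29 with median centring, where the median of all genes was 0.11. Cdkn1b and Hjurp kept a negative difference under each alternative, from -0.89 to -0.46 and from -1.05 to -0.43. Myh2, Cd3g and Cd207 were not followed under the alternatives. The cause of these changes was not tested, and slide and group cannot be told apart under any setting.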
